A study of Rattus norvegicus with 29 samples.

Results

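Proteins that a cell secretes or places in its membranes are folded in the endoplasmic reticulum (ER), and the genes described here encode that folding machinery together with markers of plasma cells, the antibody-secreting cells that lean on it most. The set was a list of 33 genes matched by name to the probes of a rat whole-genome array, and 32 of them had a probe with signal well above background on at least 4 of 29 arrays. These 32 stood among 24272 genes tested. Every probe of the 32 was well above background on all 29 arrays, and none was saturated on any. Xbp1, which encodes a transcription factor of the same pathway, was not analysed here.

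RNA came from peripheral blood mononuclear cells (PBMC), the lymphocytes and monocytes that a Ficoll gradient separates from blood, of 29 male Wistar rats aged 6 months. For the last 4 months the rats had eaten either a fat-rich cafeteria diet on top of chow, which made them obese, or chow alone. Within each diet different rats were sampled while feeding freely, after 14 h without food, or after 14 h without food followed by 6 h of free feeding. The 6 groups were cafeteria fed, cafeteria fasted, cafeteria refed, control fed, control fasted and control refed, each of 5 rats except control fed, which had 4. Each rat gave 1 array, on which its own RNA (Cy5) was hybridised against a pool of RNA from all groups (Cy3), so each value is a log2 ratio of a rat over that pool. A value of 0 equals the pool, and levels of different genes were not set against each other. Rats are named here by group and by the number in their label.

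In the ER lumen, the Hsp70 chaperone BiP and the Hsp90 chaperone Grp94 hold unfolded chains, J proteins deliver substrates to BiP, lectin chaperones hold glycoproteins, and disulfide isomerases join cysteines. Chains that fail to fold are drawn back to the cytosol and degraded. When unfolded chains build up, the sensors Ire1, Atf6 and Perk start the unfolded protein response, which raises chaperone transcription through Atf6 and Xbp1 and acts on translation and amino acid supply through Atf4 and Chop. B cells that become plasma cells expand this machinery under the transcription factors Blimp-1, Irf4 and Xbp1, and such cells are normally scarce in blood.

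The promoters are shown because the chaperone genes that moved with feeding or varied among rats are classical targets of this response. The ER stress response element (ERSE), which is CCAAT, any 9 bases and CCACG, and the shorter ERSE-II, which is ATTGG, any 1 base and CCACG, were searched on both strands in the 300 bases around each start site (250 before it and 50 after its first base) in the RefSeq promoter table of build GRCr8, where 26 of the 33 genes had an entry. ERSE was present in 22 of 33469 promoters in the table (0.0657%), and 7 of those belonged to the listed genes (Calr, Canx, Creld2, Dnajc3, Hsp90b1, Hspa5 and Xbp1). ERSE-II was present in 17 promoters (0.0508%), 3 of them of listed genes (Dnajb11, Herpud1 and Hyou1). No promoter of a listed gene held both. Manf, Pdia3, Pdia6, Derl1, Atf6, Ern1 and Mzb1 were not matched. The 250 bases before the start site are given 5′ to 3′ on the gene's strand, with ERSE and ERSE-II matches in capitals.
Hspa5 (chr3:38452766-38453015, plus strand): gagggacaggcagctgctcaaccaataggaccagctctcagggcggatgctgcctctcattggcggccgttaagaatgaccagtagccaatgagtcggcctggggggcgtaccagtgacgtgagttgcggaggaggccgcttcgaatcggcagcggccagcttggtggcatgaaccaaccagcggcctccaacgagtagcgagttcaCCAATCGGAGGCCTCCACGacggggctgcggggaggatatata
Dnajb9 (chr6:67002052-67002301, minus strand): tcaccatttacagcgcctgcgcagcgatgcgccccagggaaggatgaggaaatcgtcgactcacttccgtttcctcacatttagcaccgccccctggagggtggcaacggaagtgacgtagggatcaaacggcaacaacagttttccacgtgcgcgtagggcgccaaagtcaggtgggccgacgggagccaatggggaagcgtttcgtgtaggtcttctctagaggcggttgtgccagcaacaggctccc
Herpud1 (chr19:10614708-10614957, minus strand): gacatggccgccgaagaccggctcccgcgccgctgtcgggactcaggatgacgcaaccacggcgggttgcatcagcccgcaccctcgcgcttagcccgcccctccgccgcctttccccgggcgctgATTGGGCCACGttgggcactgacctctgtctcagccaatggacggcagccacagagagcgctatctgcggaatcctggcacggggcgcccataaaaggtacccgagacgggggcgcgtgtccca
Dnajc3 (chr15:102432417-102432666, plus strand): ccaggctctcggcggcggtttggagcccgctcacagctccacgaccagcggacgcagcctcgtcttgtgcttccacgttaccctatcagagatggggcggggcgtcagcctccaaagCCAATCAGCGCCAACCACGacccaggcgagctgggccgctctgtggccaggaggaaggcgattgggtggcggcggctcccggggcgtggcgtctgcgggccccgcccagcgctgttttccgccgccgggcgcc
Calr (chr19:40213117-40213366, plus strand): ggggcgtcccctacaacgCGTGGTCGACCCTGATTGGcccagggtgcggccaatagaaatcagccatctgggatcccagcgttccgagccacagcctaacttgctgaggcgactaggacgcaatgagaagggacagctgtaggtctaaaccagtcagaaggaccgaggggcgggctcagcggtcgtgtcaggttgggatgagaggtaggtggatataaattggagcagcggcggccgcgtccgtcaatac
Hsp90b1 (chr7:23012294-23012543, minus strand): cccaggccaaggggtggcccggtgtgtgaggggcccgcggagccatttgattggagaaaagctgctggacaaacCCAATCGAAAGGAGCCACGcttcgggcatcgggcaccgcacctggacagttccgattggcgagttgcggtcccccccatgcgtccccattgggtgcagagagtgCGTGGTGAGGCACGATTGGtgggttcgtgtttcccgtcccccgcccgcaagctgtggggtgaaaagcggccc
Creld2 (chr7:121789134-121789383, plus strand): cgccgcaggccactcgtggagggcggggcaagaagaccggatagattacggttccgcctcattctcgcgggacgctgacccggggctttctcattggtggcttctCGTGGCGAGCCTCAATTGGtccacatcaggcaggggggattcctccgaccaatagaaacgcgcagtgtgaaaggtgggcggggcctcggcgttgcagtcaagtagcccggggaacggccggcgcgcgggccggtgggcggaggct
Pdia4 (chr4:78153192-78153441, minus strand): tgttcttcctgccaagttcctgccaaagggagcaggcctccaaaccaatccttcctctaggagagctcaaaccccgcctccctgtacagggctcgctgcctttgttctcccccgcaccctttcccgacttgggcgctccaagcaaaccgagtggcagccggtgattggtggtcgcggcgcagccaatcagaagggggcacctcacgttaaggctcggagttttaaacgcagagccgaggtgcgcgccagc
Hspa5 held 1 ERSE close to its start site, Hsp90b1 held 2 on opposite strands, and Calr and Creld2 held 1 each on the opposite strand. Herpud1 carried ERSE-II. Dnajb9 and Pdia4 held no such letters in this window, although Dnajb9 moved with feeding as Hspa5 did and Pdia4 varied with a plasma cell gene among rats of a group. Of the other motifs of the response that were searched, each was found in 1 of the 26 listed genes with an entry. TGACGTGG, in 199 of all promoters (0.595%), was found in Hyou1, and TGATGNAA, in 1332 promoters (3.98%), in Herpud1. The motifs may overlap; a match describes letters, not a bound site.

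Before the comparisons, 1 rat needs to be described. Control fasted 2 was the highest of the 29 arrays for 25 of the 32 genes, whereas it was the highest for 6.91% of all genes. Mzb1, a chaperone of antibody assembly, stood at 2.675 there, and at 0.72 in control fed 1, the next highest. Tnfrsf17, the survival receptor BCMA of plasma cells, stood at 2.83 against 1.13 in control fed 1. Among the ER genes, Creld2 was at 1.93, Pdia4 at 1.79, Sdf2l1 at 1.64, Hyou1 at 1.36 and Hsp90b1 at 1.32, each with no other array above 0.64. The 7 genes not highest in this rat were Dnajb9, Herpud1, Syvn1, Atf4, Atf6, Ddit3 and Ern1.

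**Figure D1:**
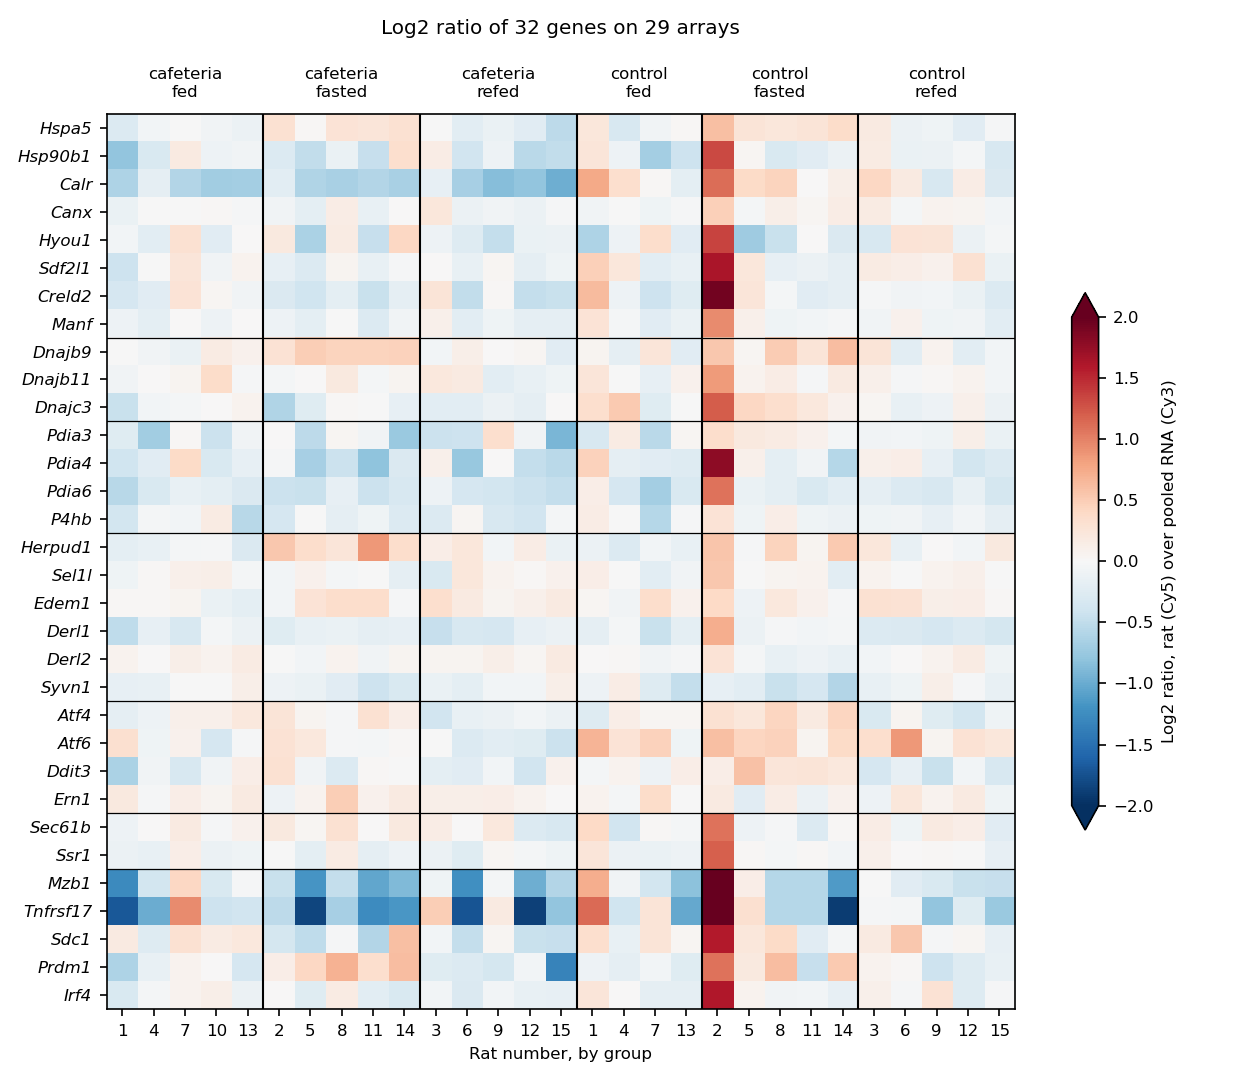
Log2 ratio of each of 32 genes (rows, grouped by role) on each of 29 arrays (columns, by group and rat number), with red above the RNA pool and blue below it; values beyond 2 in either direction share the end colour. Control fasted 2 shows as a red column through most rows, and Calr is blue across the cafeteria arrays.

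The same rat was highest, over all arrays, for the mean of 7 other plasma cell genes (1.04, against -0.40 to 0.38 on the other arrays), of 13 genes of dividing cells (0.80, against -0.25 to 0.30) and of 53 further ER genes (0.53, against -0.12 to 0.07). It was not the highest for B cell genes (-0.15, with 14 arrays above it), T cell genes (-0.12, 15 above), monocyte genes (-0.55, 26 above) or NK cell genes (-0.10, 13 above). Neutrophil genes (-0.365, 21 above) and erythroid genes (-0.924, 24 above) were not highest there either. For genes of plasmacytoid dendritic cells it stood at 0.12, with 1 array above it (-0.218 to 0.237 on the other arrays). For platelet genes it stood at 0.733, with 2 arrays above it (-1.699 to 1.03 on the other arrays). Defining genes of T cells (Cd3e, Cd3d), B cells (Ms4a1), monocytes (Cd14, Csf1r), platelets (Pf4, Gp1bb), red cells (Hbb, Ahsp) and NK cells (Klrb1b, Prf1) were well above background on all 29 arrays. Of the neutrophil genes, Camp was so on all 29 and Retnlg on 27. The samples therefore held RNA of platelet, erythroid and neutrophil genes besides that of mononuclear cells. The array itself lay inside the range of the others, with a median Cy5 signal of 142.6 (all arrays 103.2 to 154.2) and 60.55% of probes well above background (53.3% to 66.7%). In bulk RNA, fewer cells of a type and less RNA per cell cannot be told apart. Each result below that rests on this rat is given with and without it.

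Fasting against feeding asked what 14 h without food did. In all 4 genes that passed the test over both diets, the level was higher in fasted rats: the chaperone BiP (Hspa5), its J protein Dnajb9, the ERAD adaptor Herpud1 and the plasma cell factor Blimp-1 (Prdm1). The changes were 1.28-fold to 1.50-fold. Calls here mean an adjusted p below 0.05, with limma and Benjamini-Hochberg adjustment over all 24272 genes. The comparison over the mean of both diets was added with the values within each diet known. The fasted rats are the same animals in the fasting and the refeeding comparisons, so opposite signs in them do not stand as separate evidence.

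Hspa5 had log2 ratios of 0.31, 0.02, 0.28, 0.24 and 0.31 in cafeteria fasted rats, against -0.28, -0.05, -0.01, -0.08 and -0.12 in cafeteria fed rats. It had 0.60, 0.25, 0.23, 0.26 and 0.37 in control fasted rats, against 0.23, -0.32, -0.07 and 0.02 in control fed rats. Every fasted rat lay above every fed rat of its diet, though in both diets the lowest fasted value was only just above the highest fed one. Over both diets the change was 0.36 ± 0.071 (SE; adjusted p = 0.00387). Within a diet it was 0.34 ± 0.098 in cafeteria rats (adjusted p = 0.101) and 0.38 ± 0.104 in control rats (adjusted p = 0.107), and neither passed.

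Dnajb9, a J protein that binds unfolded chains and restrains Ire1, had 0.28, 0.49, 0.45, 0.45 and 0.46 in cafeteria fasted rats, against -0.01, -0.08, -0.13, 0.16 and 0.08 in cafeteria fed rats. It had 0.54, 0.04, 0.50, 0.26 and 0.62 in control fasted rats, against 0.05, -0.18, 0.25 and -0.22 in control fed rats. The cafeteria groups did not overlap, and in control rats fasted rat 5 lay among the fed rats. Over both diets it rose by 0.42 ± 0.076 (adjusted p = 0.00196), and the adjusted p was 0.0506 in cafeteria rats and 0.103 in control rats. The other Dnajb9 probe gave 0.405 ± 0.078 over both diets (adjusted p = 0.00314) and 0.473 ± 0.107 in cafeteria rats (adjusted p = 0.0304).

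Herpud1, a membrane protein that helps assemble the ERAD (ER-associated degradation) complex, had 0.54, 0.36, 0.24, 0.87 and 0.35 in cafeteria fasted rats, against -0.20, -0.16, -0.04, -0.03 and -0.29 in cafeteria fed rats. It had 0.55, -0.03, 0.44, 0.05 and 0.52 in control fasted rats, against -0.11, -0.27, -0.06 and -0.15 in control fed rats. The groups did not overlap in either diet, with cafeteria fasted 11 the highest of all arrays and control fasted 5 and 11 close to the fed rats. The rise was 0.61 ± 0.115 in cafeteria rats (1.53-fold, adjusted p = 0.0128), and 0.53 ± 0.084 over both diets (adjusted p = 0.000682). The other probe gave 0.49 ± 0.100 over both diets (adjusted p = 0.00514). In cafeteria rats alone that probe gave 0.46 ± 0.137 and did not pass (adjusted p = 0.121). In cafeteria rats the change was 0.51 without cafeteria fasted 11 (adjusted p = 0.0607) and 0.59 with image run as a covariate (adjusted p = 0.0647). An image run is 1 of the 2 days on which the scanner software read spot values from the scans. The difference in cafeteria rats was 0.50 within image run 1 (1 fasted rat and 4 fed rats) and 0.65 within image run 2 (4 and 1).

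Prdm1 had 0.14, 0.41, 0.70, 0.33 and 0.61 in cafeteria fasted rats, against -0.62, -0.15, 0.06, 0.00 and -0.33 in cafeteria fed rats. It had 1.08, 0.19, 0.61, -0.46 and 0.52 in control fasted rats, against -0.10, -0.17, -0.06 and -0.24 in control fed rats. Control fasted 11 was below all control fed rats, and the cafeteria groups did not overlap. Over both diets the rise was 0.59 ± 0.157 (adjusted p = 0.0301), and without control fasted 2 it was 0.50 ± 0.148 (adjusted p = 0.0568). It lost its call on leaving out any of 10 of the 29 arrays, with changes of 0.50 or more. The other plasma cell genes did not pass: Mzb1, Tnfrsf17, Sdc1 and Irf4 were among the 28 genes not called.

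**Figure D2:**
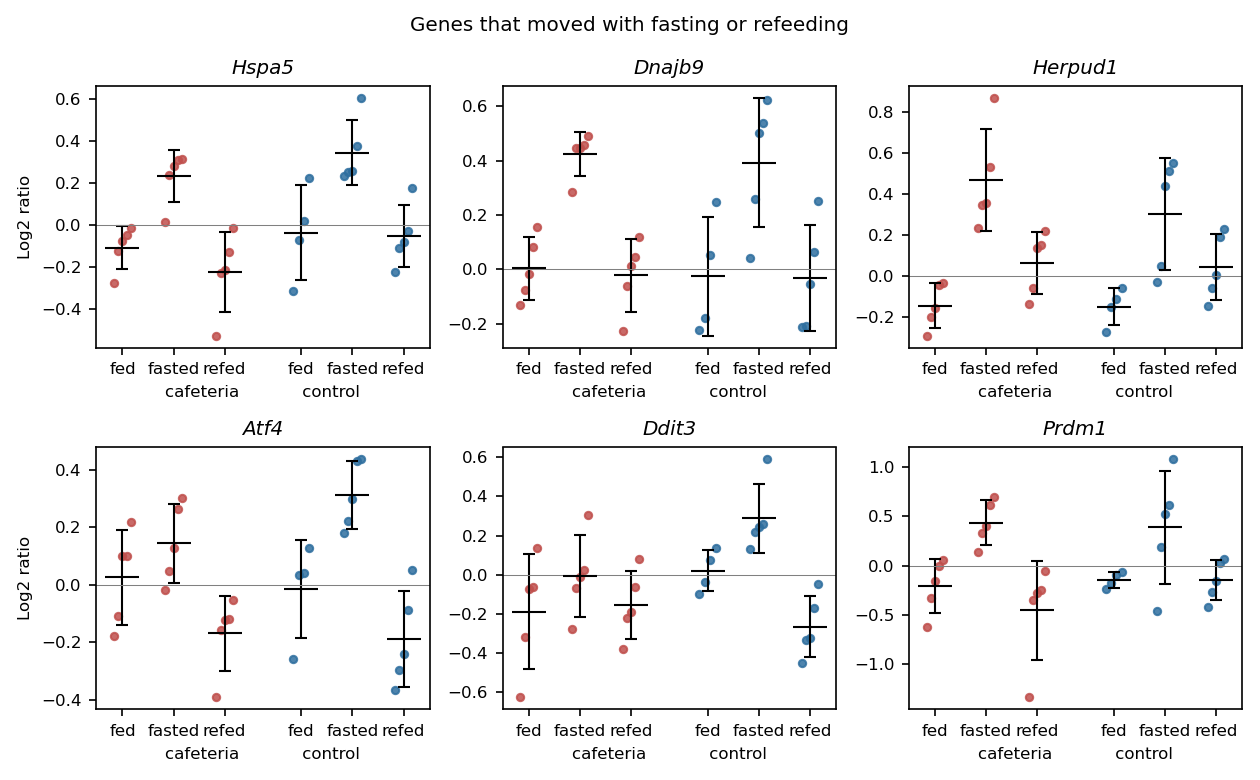
Log2 ratio over the RNA pool for 6 genes in fed, fasted and refed rats, with cafeteria rats (red) left of control rats (blue); each point is a rat, and the black bar and whiskers are the mean ± SD of 5 rats (4 for control fed). Hspa5, Dnajb9, Herpud1 and Prdm1 are highest in the fasted groups of both diets, and Ddit3 stands high in control fasted rats.

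Over both diets 4 of 32 genes were called, all higher in fasted rats, where 4.1% of all genes were called and 1.83% were called as higher. In cafeteria rats alone 1 of 32 was called (Herpud1), against 0.853% of all genes and 0.47% called as higher. In control rats 0 of 32 were called, against 0.177% of all genes, and 8 of the 32 had an unadjusted p below 0.05, as had 2809 of all 24272. The groups did not overlap, with fasted rats higher, for 4 of 32 genes in cafeteria rats (2.42% of all genes, 1.36% with fasted rats higher). The same held for 3 in control rats (4.73% of all genes, 2.31% with fasted rats higher). In cafeteria rats 15 of 32 changes were positive, with a median of -0.02. In control rats 29 of 32 were positive with a median of 0.25 (all genes 0.004), but without control fasted 2 these were 19 of 32 and a median of 0.01. With arrays centred on their median in place of loess, 0 of 32 were called over both diets, among 6 of all genes.

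By role, the 8 chaperones had changes of -0.24 to 0.34 in cafeteria rats and of 0.13 to 0.38 in control rats, and Hspa5 was the 1 that passed over both diets. The 4 disulfide isomerases, which form and shuffle disulfide bonds, ran from -0.30 to 0.03 in cafeteria rats and from 0.14 to 0.35 in control rats, with 0 called. The translocation genes Sec61b and Ssr1, parts of the channel through which chains enter the ER and of its associated complex, ran from 0.00 to 0.12 in cafeteria rats and from 0.14 to 0.25 in control rats, with 0 called. All these ranges in control rats include control fasted 2, and ranges by role without that rat are not given. Ssr1 stood at 1.2 there, against -0.05 to 0.02 in the other control fasted rats. Sec61b stood at 1.08, against -0.27 to 0.02. The positive ranges in control rats therefore do not show a rise shared by the fasted rats. Among the sensors and factors, Atf4 had an adjusted p of 0.0572 over both diets, with a change of 0.22 ± 0.067.

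Refeeding for 6 h was compared with fasting. BiP and Dnajb9 were lower in refed rats of both diets, Prdm1 was lower in refed cafeteria rats, and Atf4 and Chop (Ddit3) were lower in refed control rats. In cafeteria rats 3 of 32 genes were called, all lower, against 1.4% of all genes called and 0.647% called as lower. In control rats 6 of 32 were called, all lower, where 9.31% of all genes were called and 6% were called as lower, a background that would make about 3 of 32. The groups did not overlap for 5 of 32 genes in cafeteria rats, all lower in refed rats (3.29% of all genes, 1.32% lower). They did not overlap for 5 in control rats, 4 lower and 1 higher (10.2% of all genes, 6.07% lower and 4.09% higher).

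Hspa5 had -0.01, -0.21, -0.13, -0.23 and -0.53 in cafeteria refed rats, all below the lowest cafeteria fasted rat. It had 0.18, -0.11, -0.08, -0.22 and -0.03 in control refed rats, again all below the lowest control fasted rat. It fell by 0.45 ± 0.098 in cafeteria rats (1.37-fold lower, adjusted p = 0.0168) and by 0.40 ± 0.098 in control rats (1.32-fold lower, adjusted p = 0.00938). Without control fasted 2 the change in control rats was -0.33 ± 0.098 (adjusted p = 0.0369). In cafeteria rats it was -0.38 without cafeteria refed 15 (adjusted p = 0.0654) and -0.45 without cafeteria fasted 11 (adjusted p = 0.0552). Within image runs the difference was -0.56 in run 2 of cafeteria rats (4 rats a group) and -0.03 in run 1 (1 rat a group), and -0.30 and -0.48 in runs 1 and 2 of control rats.

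Dnajb9 had -0.06, 0.12, 0.01, 0.04 and -0.23 in cafeteria refed rats and 0.25, -0.21, 0.06, -0.21 and -0.06 in control refed rats. All cafeteria refed rats lay below the fasted ones, and in control rats refed rat 3 exceeded fasted rat 5. It fell by 0.45 ± 0.105 in cafeteria rats (adjusted p = 0.0281) and by 0.42 ± 0.105 in control rats (adjusted p = 0.0095). The call in cafeteria rats was lost on leaving out any of 7 of the 29 arrays, with an adjusted p up to 0.0898. Its other probe gave -0.32 ± 0.107 in control rats (adjusted p = 0.058) and -0.39 ± 0.076 over both diets (adjusted p = 0.00106). Within runs it was -0.55 and -0.42 in cafeteria rats and -0.31 and -0.69 in control rats (runs 1 and 2).

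Atf4, the transcription factor that amino acid shortage and Perk raise, had -0.30, 0.05, -0.24, -0.36 and -0.09 in control refed rats, against 0.30, 0.22, 0.43, 0.18 and 0.44 in control fasted rats. These groups did not overlap. It fell by 0.50 ± 0.092 (1.42-fold lower, adjusted p = 0.0016) in control rats, whereas in cafeteria rats the change was -0.31 ± 0.092 (adjusted p = 0.0873), with no overlap there either. Within runs it was -0.41 and -0.67 in control rats. With Cy5 alone, neither Atf4 nor Hspa5 was called in control rats.

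Ddit3, which encodes the factor Chop downstream of Atf4, had -0.33, -0.17, -0.45, -0.05 and -0.33 in control refed rats, against 0.13, 0.59, 0.24, 0.26 and 0.22 in control fasted rats. All refed rats were below 0 and all fasted rats above it. It fell by 0.55 ± 0.120 (1.47-fold lower, adjusted p = 0.00374), and within runs 1 and 2 the difference was -0.56 and -0.49. In cafeteria rats its refed values of -0.19, -0.22, -0.06, -0.38 and 0.08 overlapped the fasted values of 0.30, -0.07, -0.28, 0.03 and -0.01. The difference between the diets in this response, 0.41 ± 0.170, did not pass (adjusted p = 0.64).

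Prdm1 had -0.25, -0.28, -0.34, -0.06 and -1.33 in cafeteria refed rats, all below the lowest cafeteria fasted rat. It had 0.07, 0.03, -0.42, -0.27 and -0.15 in control refed rats, which overlapped the control fasted rats. It fell by 0.89 ± 0.216 in cafeteria rats (1.85-fold lower, adjusted p = 0.0343), and within runs 1 and 2 the difference was -0.66 and -0.95. Its call was lost on leaving out any of 7 of the 29 arrays, most of all cafeteria refed 15, the lowest array for this gene (-0.67, adjusted p = 0.101). Cafeteria refed 15 was also the lowest array for the mean of 8 NK cell genes (-1.03, with -0.50 in control fasted 11 the next lowest). A link between NK cell RNA and Prdm1 was not tested.

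Derl1 and Dnajc3 were called in control rats but rested on control fasted 2. Derl1, a channel component of ERAD, had -0.27, -0.29, -0.34, -0.28 and -0.35 in control refed rats, against 0.73, -0.12, -0.02, -0.06 and -0.04 in control fasted rats. The groups did not overlap, with 4 of the fasted rats between -0.12 and -0.02 and rat 2 far above them. The change was -0.40 ± 0.114 (adjusted p = 0.0227), and -0.25 ± 0.079 without that rat (adjusted p = 0.055). Dnajc3, the J protein that also restrains Perk, had 0.03, -0.15, -0.10, 0.11 and -0.11 in control refed rats, against 1.21, 0.41, 0.34, 0.21 and 0.08 in control fasted rats. The groups overlapped through control fasted 14, and the change of -0.50 ± 0.160 (adjusted p = 0.0491) was -0.31 ± 0.131 without control fasted 2 (adjusted p = 0.17). Its call was lost on leaving out any of 23 of the 29 arrays. Within runs 1 and 2 the differences were -0.41 and -0.28 for Derl1 and -0.60 and -0.11 for Dnajc3.

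Over both diets 8 of 32 genes were called, 7 lower and 1 higher, where 13.5% of all genes were called, 7.51% as lower and 5.97% as higher. The 7 lower were Atf4 (-0.41), Hspa5 (-0.43), Dnajb9 (-0.44), Prdm1 (-0.71), Ddit3 (-0.35), Herpud1 (-0.33, adjusted p = 0.00601) and Derl1 (-0.26, adjusted p = 0.0328). With the platelet mean as a covariate Ddit3 and Derl1 lost their calls, as did Derl1 in the authors' deposited table and on leaving out any of 5 of the 29 arrays (adjusted p up to 0.0644), and Atf4 with Cy5 alone. Syvn1, the ERAD ubiquitin ligase Hrd1, was the 1 that rose (0.23 ± 0.067, adjusted p = 0.0223). It had -0.13, -0.20, -0.05, -0.06 and 0.12 in cafeteria refed rats, against -0.10, -0.13, -0.23, -0.41 and -0.30 in cafeteria fasted rats. It had -0.15, -0.09, 0.11, -0.03 and -0.15 in control refed rats, against -0.16, -0.21, -0.44, -0.34 and -0.59 in control fasted rats. The control groups did not overlap and the cafeteria groups did, and its other probe gave 0.07 ± 0.040 (adjusted p = 0.316). Without control fasted 2, 9 genes were called over both diets, with Derl2 (0.11 ± 0.035, adjusted p = 0.0446) added.

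Platelet genes moved with the refeeding comparison in control rats. Of 14 platelet markers 9 were measured, 0 of which were called in cafeteria rats, whereas all 9 fell in control refed rats against control fasted rats, with a median change of -1.54. Their mean log2 ratio ran from -1.70 to 0.44 in cafeteria refed rats and from -0.39 to 0.29 in cafeteria fasted rats. It ran from -1.41 to -0.27 in control refed rats and from 0.46 to 0.79 in control fasted rats, with no overlap. With that mean as a covariate, the 3 genes called in cafeteria rats stayed called: Hspa5 (-0.52, adjusted p = 0.0115), Dnajb9 (-0.48, adjusted p = 0.0291) and Prdm1 (-0.97, adjusted p = 0.0295). In control rats 0 of the 6 stayed called, and 9 of all genes against 2260 without the covariate. There Hspa5 had -0.57 (adjusted p = 0.0762), Dnajb9 -0.51 (adjusted p = 0.124), Atf4 -0.35 (adjusted p = 0.182) and Ddit3 -0.31 (adjusted p = 0.36). In control rats platelet RNA and refeeding cannot be told apart.

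The authors' deposited table of Cy5 values shifted the median of all genes between control refed and control fasted rats to 0.153, against 0.010 in the ratios used here, and called 2943 genes as higher and 961 as lower, against 803 and 1457. With arrays centred on their median in place of loess, 0 of 32 genes were called within either diet, among 0 of all genes in cafeteria rats and 808 in control rats. Over both diets 1 of 32 was called, among 853 of all genes. Every gene called in a comparison of groups kept its direction under each scaling tried.

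Cafeteria against control diet asked what 4 months of the obesogenic diet did. The lectin chaperone calreticulin (Calr), which holds glycoproteins in the ER and stores calcium there, was 1.76-fold lower in cafeteria rats over the 3 feeding conditions, and Atf6, the sensor that is cut in the Golgi to release a transcription factor, was 1.33-fold lower. Over the mean of the feeding conditions 2 of 32 genes were called, both lower, where 3.24% of all genes were called and 2.44% as lower.

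Calr had -0.62, -0.18, -0.58, -0.70 and -0.69 in cafeteria fed rats, against 0.75, 0.34, 0.02 and -0.19 in control fed rats. It had -0.21, -0.61, -0.65, -0.59 and -0.65 in cafeteria fasted rats, against 1.11, 0.39, 0.45, 0.00 and 0.12 in control fasted rats. It had -0.16, -0.67, -0.86, -0.79 and -0.98 in cafeteria refed rats, against 0.42, 0.18, -0.33, 0.15 and -0.29 in control refed rats. All 15 cafeteria rats were below 0, the fasted groups did not overlap, and the fed and refed groups each overlapped by 1 cafeteria rat at the upper end. The change was -0.82 ± 0.114 over the 3 conditions (adjusted p = 9.03e-05) and -0.96 ± 0.193 in fasted rats (adjusted p = 0.0161). In fasted rats alone it was -0.78 ± 0.181 without control fasted 2 (adjusted p = 0.0507), whereas over the 3 conditions it was -0.76 ± 0.103 without that rat (adjusted p = 0.000123). Within image runs 1 and 2 the fasted difference was -1.1 and -0.64, and with run as a covariate it was -0.84 (adjusted p = 0.0534). Over the 3 conditions it was -0.786 with run as a covariate (adjusted p = 0.000211).

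Atf6 had 0.32, -0.09, 0.08, -0.34 and -0.03 in cafeteria fed rats, against 0.67, 0.27, 0.47 and -0.09 in control fed rats. It had 0.29, 0.21, -0.02, -0.04 and 0.02 in cafeteria fasted rats, against 0.59, 0.43, 0.45, 0.05 and 0.39 in control fasted rats. It had -0.01, -0.28, -0.21, -0.24 and -0.43 in cafeteria refed rats, against 0.33, 0.86, 0.05, 0.29 and 0.23 in control refed rats. The refed groups did not overlap, and the fed and fasted groups did. The change over the 3 conditions was -0.41 ± 0.083 (adjusted p = 0.00401), and in refed rats it was -0.59 ± 0.141 (adjusted p = 0.0739).

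Dnajc3 had -0.60, -0.25, 0.02, -0.01 and -0.16 in cafeteria fasted rats, all below the lowest control fasted rat. The change was -0.65 ± 0.160 (1.57-fold lower, adjusted p = 0.048) and -0.46 ± 0.131 without control fasted 2 (adjusted p = 0.116). The call was lost on leaving out any of 21 of the 29 arrays. Over the 3 conditions it was -0.33 ± 0.094 (adjusted p = 0.0516), and -0.27 ± 0.074 without that rat (adjusted p = 0.0466). Within runs 1 and 2 the fasted difference was -0.79 and -0.27.

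**Figure D3:**
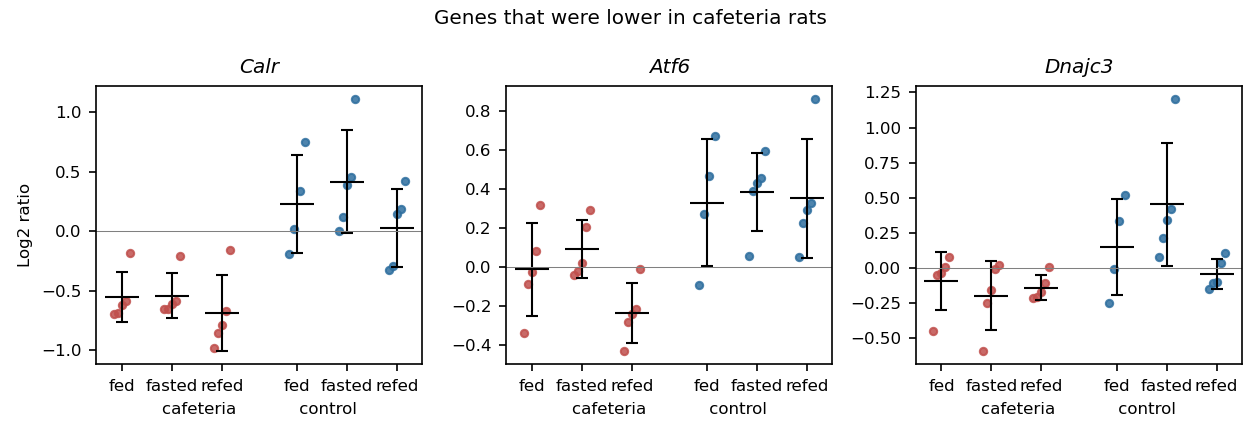
Log2 ratio over the RNA pool for Calr, Atf6 and Dnajc3 in fed, fasted and refed rats, with cafeteria rats (red) left of control rats (blue); each point is a rat and the black bar and whiskers are the mean ± SD of 5 rats (4 for control fed). All 15 cafeteria rats have Calr below 0, while Dnajc3 separates the diets in fasted rats only.

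In fasted rats 2 of 32 genes were called (Calr and Dnajc3), against 0.849% of all genes and 0.742% called as lower, and without control fasted 2, or with image run as a covariate, there were 0. There were also 0 with processed signals, Cy5 alone, median centring or the authors' deposited table, each of which called 9 to 24 of all genes. Control fasted rats lay mostly in run 1 and cafeteria fasted rats mostly in run 2. Here 12 of 32 genes and 3587 of all 24272 had an unadjusted p below 0.05, and the median change of -0.28 became -0.09 without that rat. In fed rats 0 of 32 were called, against 0.00412% of all genes, and 2 (Calr and Atf6) had an unadjusted p below 0.05, as had 1100 of all genes. In refed rats 0 of 32 were called, against 0.222% of all genes, and the same 2 genes had an unadjusted p below 0.05, as had 1941 of all genes. The groups did not overlap for 0 of 32 genes in fed rats (1.04% of all genes), 3 in fasted rats (4.5%, and 2.86% lower in cafeteria rats) and 1 in refed rats (2.04%, and 1.47% lower), each of these 4 lower in cafeteria rats. By role, the 8 chaperones ran from -0.82 to -0.06 over the 3 conditions, the 4 disulfide isomerases from -0.32 to -0.11 and the 5 plasma cell genes from -0.66 to -0.11, while the 6 degradation genes ran from -0.09 to 0.08. These ranges include control fasted 2. Over the 3 conditions 5 of 32 changes were positive, with a median of -0.12, and without that rat 8 were, with a median of -0.07.

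Whether the diet altered the response to feeding was tested with interaction terms. For fasting 0 of 32 genes were called, against 0% of all genes, with 0 of 32 and 776 of all genes at an unadjusted p below 0.05. For refeeding 0 of 32 were called, against 0% of all genes, with 2 of 32 (Dnajc3 and Ddit3) and 1817 of all genes at an unadjusted p below 0.05. Across the 10 comparisons of groups that the design implies, 10 of the 32 genes were called at least once and 22 in none. The share of all genes called at least once is not given, so the 10 cannot be weighed against it. Refed against fasted control rats alone called 9.31% of all genes.

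Rats of the same group also differed from each other in these genes. To describe which genes varied with plasma cell RNA, each gene was regressed on Mzb1 across the 29 arrays with group as a term, so that only deviations from the group means counted. The genes that varied with Mzb1 were 3 of the 4 other plasma cell genes, 2 of the 4 disulfide isomerases (Pdia4 and Pdia6) and several chaperones, among others. Of the genes called in a feeding comparison, Derl1 and Dnajc3 were called here as well, and Hspa5, Dnajb9, Herpud1, Prdm1, Atf4, Ddit3 and Syvn1 were not. Of 31 genes 15 were called, all with a positive slope, against 0.911% of all genes called and 0.894% called as positive. Without control fasted 2 there were 6 of 31, against 0.379% of all genes called and 0.358% as positive. Without control fed 1 as well there were 4 of 31, among 76 of all genes.

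Tnfrsf17 had the steepest slope, 1.28 ± 0.093 log2 units per log2 unit of Mzb1 (adjusted p = 6.37e-10), and 1.56 ± 0.132 without control fasted 2 (adjusted p = 1.18e-07). Pdia4, a disulfide isomerase, had 0.585 ± 0.043 (adjusted p = 6.97e-10) and 0.54 ± 0.069 without that rat. Creld2, a chaperone with disulfide isomerase activity, had 0.55 ± 0.043, and 0.46 ± 0.065 without it. Sdf2l1, a partner of BiP and Dnajb11, had 0.45 ± 0.037, and 0.33 ± 0.051 without it. These 4 were also called without both control fasted 2 and control fed 1. Hsp90b1, which encodes Grp94, had 0.455 ± 0.054 (0.446 ± 0.088 without control fasted 2), and Irf4 had 0.41 ± 0.041 (0.25 ± 0.051).

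The other 9 called genes passed only with control fasted 2. They were the translocation genes Ssr1 (0.30) and Sec61b (0.30), the chaperones Manf (0.25) and Calr (0.27), Pdia6 (0.33), Dnajc3 (0.25), Sdc1 (0.375), Derl2 (0.09) and Derl1 (0.16). Calr kept a slope of 0.27 ± 0.106 without that rat (adjusted p = 0.381), while that of Derl1 was 0.02 ± 0.052. Hyou1, the exchange factor of BiP, was not called (0.31 ± 0.097, adjusted p = 0.227) and had -0.03 ± 0.130 without that rat. Hyou1 was also low in control fasted 5, at -0.72, while Mzb1 stood at 0.12 there.

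**Figure D4:**
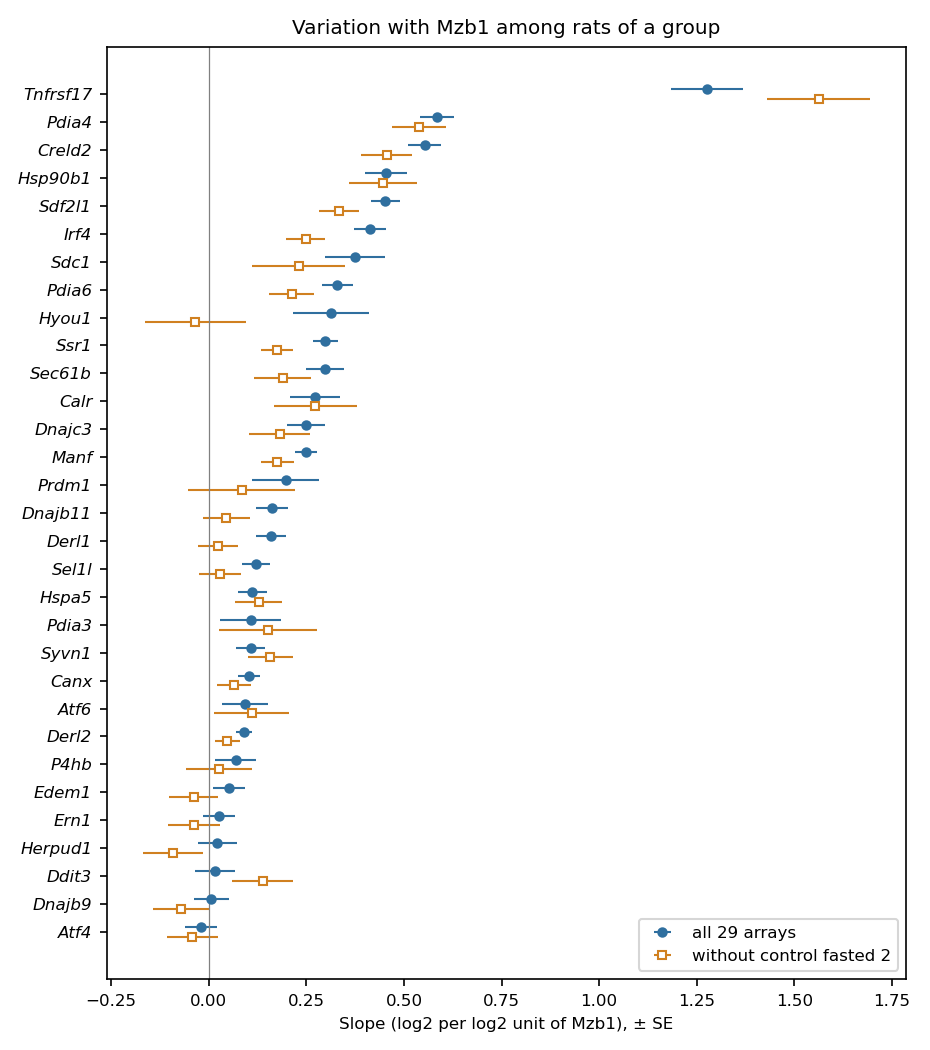
Slope of each of 31 genes on Mzb1 among rats of a group, in log2 units per log2 unit with its SE, for all 29 arrays (blue circles) and without control fasted 2 (open orange squares). Tnfrsf17 lies far to the right and Hspa5 stands at 0.11, while Dnajb9 (0.01), Herpud1 (0.02) and Atf4 (-0.02) lie near 0.

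Among the genes called in a feeding comparison, Dnajb9 had a slope of 0.01 ± 0.046, Herpud1 of 0.02 ± 0.050, Atf4 of -0.02 ± 0.040 and Ddit3 of 0.02 ± 0.052. Hspa5 had 0.11 ± 0.037 and Syvn1 0.107 ± 0.036, both above the 0.09 of Derl2, which was called. Prdm1 had 0.20 ± 0.086 (adjusted p = 0.72), unlike the other 3 plasma cell genes tested, which were called. The differences between slopes were not tested. The median slope over the 31 genes was 0.16 (0.14 without control fasted 2), beside -0.001 over all genes. Within run 1, which held control fasted 2, 11 of 31 genes and 100 of all genes were called, and within run 2 there were 0 of 31 and 0 of all genes. The slopes in run 2 and run 1 were 1.442 and 1.144 for Tnfrsf17, 0.607 and 0.552 for Pdia4, 0.411 and 0.58 for Creld2, 0.202 and 0.505 for Sdf2l1, and -0.005 and 0.275 for Calr.

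**Figure D5:**
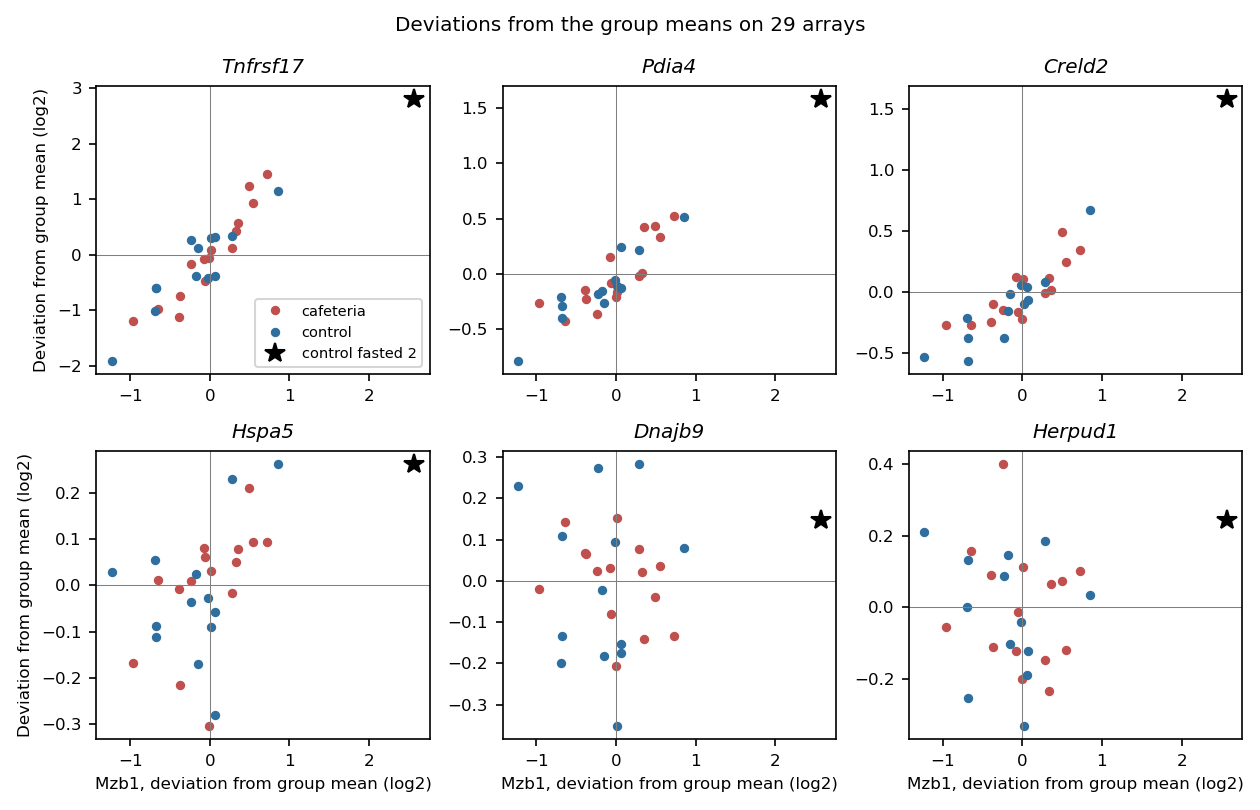
Deviation of each of 6 genes from its group mean (vertical, log2) against that of Mzb1 (horizontal, log2) for 29 rats, with cafeteria rats in red, control rats in blue and control fasted 2 as a black star. Tnfrsf17, Pdia4 and Creld2 climb with Mzb1 also among the other 28 rats, while Dnajb9 and Herpud1 show no such climb.

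Among genes outside the list, the 10 with a symbol and the smallest p in this regression were Jchain, Fkbp11, Cst6, Sec11c, Fcgrt, Gas6, Try10, Selenom, Ell2 and Prss2. Jchain, the joining chain of secreted IgM and IgA, had a slope of 1.098 ± 0.072 and stood at 2.55 in control fasted 2, with no other array above 1.29. Fkbp11, a prolyl isomerase of the ER that secretory cells express, had 0.58 ± 0.040, and Sec11c, a subunit of signal peptidase, had 0.445 ± 0.034. Ell2, an elongation factor that favours the secreted form of antibody transcripts, had 0.37 ± 0.032. Try10 and Prss2, both named for trypsins, had 1.76 ± 0.149 and 1.855 ± 0.163, and as members of a family of near-identical genes they may share hybridising RNA.

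Of a wider list of 59 ER genes outside the 33, 53 were measured. In the same regression 20 of the 53 were called, all positive, against 0.911% of all genes. Without control fasted 2 there were 3 (Fkbp11, Chac1 and Sec11c), against 0.379% of all genes. The 20 included the TRAP subunits Ssr2 (0.31) and Ssr3 (0.17), the channel subunit Sec61a1 (0.21) and the cargo receptor Lman1 (0.25). Also among them were the oligosaccharyltransferase subunits Rpn1 (0.25), Rpn2 (0.16), Dad1 (0.18) and Ddost (0.22). Of the 7 other plasma cell genes 5 were called, all positive, and 3 without control fasted 2 (Jchain, Fkbp11 and Ell2). The lists are not separate, as Fkbp11 is on both. Of 13 genes of dividing cells Rrm2 (0.51) and Ccnb2 (0.17) passed, and 0 without that rat. Of 9 B cell genes Blk passed (0.23, adjusted p = 0.0291), and 0 without that rat.

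Between groups the wider list had shares of called genes close to those over all genes. Fasting over both diets raised 2 of 53, where 4.1% of all genes were called, the ERAD ubiquitin-conjugating enzyme Ube2j1 (0.34 ± 0.082, adjusted p = 0.0158) and Ppp1r15a, which encodes the phosphatase subunit Gadd34 (0.315 ± 0.089, adjusted p = 0.0411). Refeeding over both diets, with 13.5% of all genes called, lowered 6 of 53: Ube2j1 (-0.43), Atf3 (-0.88), Trib3 (-0.415), Ppp1r15a (-0.27), Ero1b (-0.24) and Sec61g (-0.57). Atf3, Trib3 and Ppp1r15a are known targets of Atf4 and Chop. It raised 2, Eif2ak3, which encodes Perk (0.18 ± 0.051), and Sec62 (0.15 ± 0.049). Within a diet 1 was lower in refed cafeteria rats (Atf3, -1.13 ± 0.281), where 1.4% of all genes were called, and 4 in refed control rats (Ube2j1, Sec61g, Sec11c and Ero1b), where 9.31% were. Over the 3 feeding conditions, with 3.24% of all genes called, Erlec1, an ERAD lectin, was the 1 of 53 that was lower in cafeteria rats (-0.28 ± 0.056, adjusted p = 0.0028). Of the 7 other plasma cell genes, with a median change of -0.094, Slamf7 was called as lower (-0.35 ± 0.098, adjusted p = 0.0433). Called as higher were 1 of 9 B cell genes (Cd37, 0.156), 1 of 7 erythroid genes (Ahsp, 0.986) and 1 of 7 neutrophil genes (Camp, 0.801). A link of these genes to Calr or Atf6 was not tested.

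Several genes called in no comparison of groups stayed within narrow ranges apart from control fasted 2. Canx, the membrane-bound lectin chaperone, ran from -0.20 to 0.22 on the other 28 arrays, Manf from -0.28 to 0.27, Dnajb11 from -0.21 to 0.37 and Ssr1 from -0.25 to 0.25. P4hb, the founding disulfide isomerase, ran from -0.57 to 0.27 over all 29 arrays, and Pdia3, which works with the lectin chaperones, from -0.91 to 0.35. Ern1, which encodes Ire1, ran from -0.23 to 0.49 and passed no test. Mzb1 and Tnfrsf17 had wide ranges, from -1.27 to 0.72 and from -1.89 to 1.13 without control fasted 2, and 0 calls between groups.

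Of the 7 genes with several probes, Edem1, a lectin that marks misfolded glycoproteins for degradation, was the least settled. In refed against fasted control rats its brightest probe gave 0.06 ± 0.097, while its other probes gave -0.35 ± 0.139 and -0.31 ± 0.111, and none passed. Hyou1 probes differed in sign in fasted against fed control rats (0.13 ± 0.278 and -0.09 ± 0.112). So did Hsp90b1 probes in fasted against fed cafeteria rats (0.02 ± 0.240 and -0.17 ± 0.178), and none of these passed. Syvn1 probes differed in size, whereas both probes of Herpud1 and of Dnajb9 were called in the comparisons over both diets.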

How the data were processed

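PBMC RNA of 29 rats was hybridised to 2-colour Agilent arrays, each rat in Cy5 and a pool of all groups in Cy3, per the labels. The deposited scanner files hold spot intensity from Feature Extraction 9.5.1.1, with background, saturation and outlier flags, per the file headers, and the probe positions in them use build rn4. The authors' deposited table holds log2 Cy5 signal for 20196 probes used here, with a slope of 0.985 to 1.02 on the scanner signal, and served as an alternative. Its normalization is not given in the sources used here.

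Mean intensity was corrected with normexp (offset 50) and normalised by loess within arrays in limma 3.58.1 (R 4.3.3), with control spots and outliers given no weight. Of 41012 probes 28242 had Cy5 well above background on at least 4 arrays, and the brightest probe stood for its gene, giving 24272 genes, 11237 of them with a symbol. In all, 526 outlying values of kept probes were left out. A single fit of 6 groups over all 29 arrays (lmFit, eBayes, 2-sided) gave log2 changes with SE and Benjamini-Hochberg adjusted p over all genes. The regression on Mzb1 used the same tools with group terms. The arrays came from 8 slides, 1 scan day and 2 runs of Feature Extraction on the scanned images (image runs), per the file headers. Cafeteria fasted and refed rats lay mostly in run 2, and control fasted and cafeteria fed rats mostly in run 1. The number of arrays limits the precision. Scripts were tested on simulated data.

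The genes, gene lists and comparisons were chosen with earlier results of these data known. Genes called in a comparison are named, as are the 10 other genes with the smallest p in the regression. Same-numbered rats did not deviate together, with correlations of -0.151 to 0.208 over 14 pairs, 2 of them over 0.1, so rat numbers were taken as names. Alternatives were background and scaling choices, probe filters, slide, run and platelet terms, a replicate block and each array left out. Promoters came from RefSeq (GRCr8).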

Additional observations from a re-analysis of the deposited data

Results flagged for a closer look

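Within each group the rat farthest from the others was compared with Dixon's critical value at the 95% level, for 32 genes in 6 groups, or 192 sets, and 25 sets held such a rat. For a single set, chance gives about 1 in 20. The sets share arrays and hold genes that vary together, so the count of 25 cannot be tested against that rate. The share of such sets over all genes is not given. Control fasted 2 was the rat in 12 of the 25, always on the high side: Creld2 stood at 1.93, Pdia4 at 1.79, Sdf2l1 at 1.64, Irf4 at 1.60, Hsp90b1 at 1.32, Ssr1 at 1.20, Pdia6 at 1.09, Sec61b at 1.08, Manf at 0.94, Dnajb11 at 0.86, Derl1 at 0.73 and Derl2 at 0.28.

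Among the other control rats, control fed 1 stood above its group for Pdia4 (0.46) and Ssr1 (0.25), and control fasted 5 above its group for Ddit3 (0.59). Among cafeteria fed rats, rat 1 was low for Canx (-0.13) and Dnajc3 (-0.45), rat 4 was high for Calr (-0.19) and low for Sdc1 (-0.26), and rat 7 was high for Ssr1 (0.14). Among cafeteria fasted rats, rat 2 was high for Calr (-0.21) and low for Dnajb9 (0.28), and rat 5 was low for Hspa5 (0.02). Among cafeteria refed rats, rat 3 was high for Canx (0.22) and rat 15 was low for Prdm1 (-1.33).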

How the results depend on the processing

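The number of genes called, out of 32 (31 for the regression), changed as follows. Median centring in place of loess called 0 in fasted against fed and in refed against fasted rats of either diet, 0 in cafeteria against control fasted rats, 1 over the 3 feeding conditions, and, over both diets, 0 for fasting and 1 for refeeding. Of all genes, median centring called 2 for fasting and 808 for refeeding in control rats, and 0 for each in cafeteria rats. It called 24 of all genes between diets in fasted rats and 54 over the 3 conditions, and 6 for fasting and 853 for refeeding over both diets. In fasted against fed cafeteria rats the count out of 32 was 2 with the 15-array filter, with every probe by itself (through the other Dnajb9 probe), with slide as a random block and with platelet mean as a covariate, and 0 with image run as a covariate. In refed against fasted cafeteria rats it was 1 with processed signals, 0 with Cy5 alone and 1 with the authors' deposited table (280, 156 and 143 of all genes). In refed against fasted control rats it was 0 with platelet mean as a covariate (9 of all genes). In cafeteria against control fasted rats it was 0 with processed signals, Cy5 alone or the authors' deposited table (13, 10 and 9 of all genes). There it was also 0 with run as a covariate, and 1 with platelet mean (378 of all genes). In cafeteria against control refed rats the authors' deposited table called 2 (293 of all genes). The regression called 4 without its 2 most extreme arrays (76 of all genes), 11 in run 1 (100 of all genes) and 0 in run 2 (0 of all genes), where the Calr slope was -0.005. The causes were not tested.

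Leaving out each array in turn gave counts of 0 to 2 in fasted against fed rats of either diet, 0 to 3 and 5 to 7 in refed against fasted cafeteria and control rats, 0 to 2 in cafeteria against control fasted rats and in refed rats, 2 to 3 over the 3 conditions, 3 to 5 and 7 to 9 over both diets, and 6 to 17 in the regression. Counts of 0 came without cafeteria fasted 11 (fasted and refed cafeteria rats), cafeteria refed 15 (refed cafeteria rats) or control fasted 2 (diet in fasted rats), and the 6 without control fasted 2. A count of 2 in place of 0 came without control fasted 5 (fasted control rats) and without cafeteria refed 3 (diet in refed rats). Of all genes, 6 to 112 were called for fasting in control rats and 10 to 303 in cafeteria rats. For refeeding these were 1681 to 2385 and 74 to 520. Between diets they were 58 to 369 in fasted rats, 4 to 139 in refed rats and 625 to 896 over the 3 conditions. Over both diets they were 682 to 1177 for fasting and 2865 to 3455 for refeeding, and in the regression 92 to 239.

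With rat number as a replicate block, 0, 1 and 2 genes were called between diets in fed, fasted and refed rats, 2 over the 3 conditions and 0 for both interactions, and among all genes 0, 284, 139, 637 and 0.

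The number of all genes called moved by over 1.5 times with scaling or a platelet covariate, with 2260 set beside 9 to 3904 in refed against fasted control rats, and the share called as higher there was 35.5%, against 3.09% to 75.4%. That share was 54% in refed against fasted cafeteria rats, against 43.7% to 71.8%, 55.1% in fasted against fed cafeteria rats, against 26.4% to 60.6%, 44.7% for fasting over both diets, against 28.2% to 100%, 44.3% for refeeding over both diets, against 25.1% to 67.9%, and 24.6% for diet over the 3 conditions, against 27.6% to 46.6%.

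All probes of these 32 genes were well above background on all 29 arrays.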
